A study of Bos taurus with 30 samples.

Results

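The effect of in vitro production was compared between the tissues of the same conceptus in 26 samples, which are the embryonic disc (ED) and the extra-embryonic membranes (EEM) of 13 bovine day 15 embryos. Of the 30 samples in the series, these 26 were chosen because their embryo gave both tissues, 5 of them from in vitro production (IVP) and 8 conceived in vivo (IVV). IVP embryos came from slaughterhouse oocytes that were matured, fertilized and cultured without serum, and were transferred to recipient cows at day 7. IVV embryos came from superovulated cows after artificial insemination with semen of the same Holstein bull. All conceptuses were Holstein and were flushed from the uterus at day 15. The study found IVP conceptuses shorter than IVV ones on average and controlled its own tests for morphology. The tissue fits of the main results here held no morphology term. Embryos of each procedure shared 2 cows, and the labels do not tie an embryo to a cow, so p-values measure the spread between these embryos only. Poly(A)-selected RNA was sequenced, and the authors deposited raw read counts per gene.

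At this stage the bovine conceptus is an elongating sac. The ED is the thickened plate derived from the epiblast, in which gastrulation forms the primitive streak and mesoderm and from which the fetus arises. The EEM are trophoblast lined by hypoblast, which secrete interferon tau and will build much of the placenta. A gene can respond to in vitro production in both tissues alike, in 1 of them, or in opposite directions, and only a test of the difference between the tissues separates these cases. That test is the interaction of tissue and procedure, which compares the ED minus EEM difference of IVP embryos with that of IVV embryos, each embryo serving as its own block.

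The 26 samples held between 48713218 and 59358231 counts. Levels are given as CPM, the count scaled to library size after TMM adjustment. A group is said to be at the floor for a gene if none of its samples had over 3 counts, which is 0.0435 to 0.0676 CPM (a limit that covers counting error only). The disc marker POU5F1, a pluripotency factor, stood between 15.8 and 229 CPM in the 13 ED samples and between 0.412 and 2.44 CPM in the 13 EEM samples. NANOG, another pluripotency factor, was at most 0.194 CPM in the EEM, and TBXT, the primitive streak factor, was at the floor in every EEM sample. SOX2 was at the floor in all 4 groups, the ED included. Trophoblast markers were not confined to the EEM. Over the 10 trophoblast genes the summed level was 7650 to 11300 CPM in IVP discs and 4610 to 8980 CPM in IVV discs. In IVP and IVV membranes it was 8550 to 14200 and 4350 to 11200 CPM. Trophoblast transcripts were thus abundant in the ED samples too. In tissue samples of this kind, fewer cells of a type and less RNA per cell cannot be told apart. VE19 set the lowest IVV level of several genes, among them KDR, WNT5A and IGFBP4 in the ED, LY6E and PCOLCE2 in the EEM and WNT4 in both. Of 4 endometrial markers PAEP and SERPINA14 were at the floor in all groups, while the hormone receptors PGR and ESR1 were not, and the 4 summed to at most 2.01 CPM.

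XIST, the RNA that silences an X chromosome in female cells, divided the embryos along nearly the same line as the procedure. In all 5 IVP embryos it was at most 0.594 CPM in both tissues. In 6 of the 8 IVV embryos it was between 44.3 and 421 CPM, and in the other 2, VE3 and VE5, it was at most 0.213 CPM. Sex was not in the labels. Procedure and XIST level could therefore be separated only through VE3 and VE5, and calls of named genes that were lost with an XIST term in the model are given with the genes. Beside them stands the fitted interaction in the 7 embryos with low XIST. It is left out for genes with a group at the floor, whose fitted size depends on the prior count, or with no value there. No named gene whose call was lost with the XIST term was called among these 7 embryos.

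The interaction passed an adjusted p of 0.05 in 172 of 16784 genes tested (1.02%) in edgeR, where a quasi-likelihood test was adjusted by Benjamini and Hochberg's method. In 154 of them (0.918% of genes tested) the IVP effect in the ED lay below that in the EEM, and in 18 (0.107%) it lay above. The fitted effects had opposite signs in 148 of the 172 genes, and in 135 of these the gene was lower in the ED and higher in the EEM of IVP embryos. Of the 154 genes, the median IVP minus IVV difference was -1.52 in discs and 1.61 in membranes on the log2 scale, against -0.0387 and -0.0123 over all genes tested. All 154 were higher in the ED than in the EEM of IVV embryos, where the paired ED minus EEM difference had a median of 2.99 on the log2 scale. In IVP embryos the median of the same difference was 0.114. Of all genes tested, 6935 were higher in the ED than in the EEM of IVV embryos. The difference within IVV embryos is a component of the interaction, so these medians describe the calls and do not test them. Leaving out IVP10, IVPF14, VE28 or VE29 gave 109, 109, 104 and 101 calls, and an XIST term in the model gave 114, of which 61 were among the 172.

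**Figure D1:**
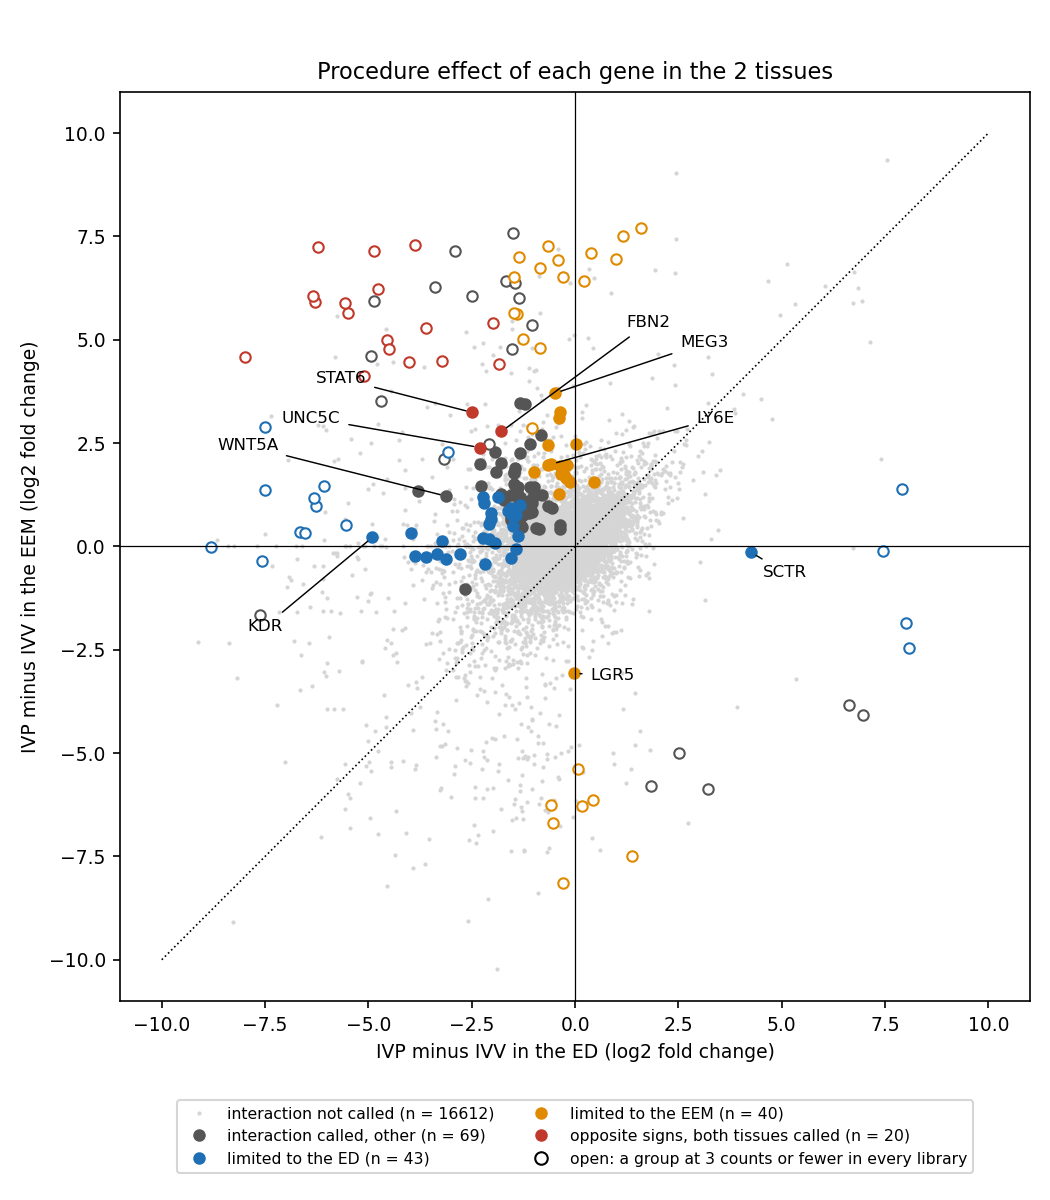
IVP minus IVV difference of each gene (log2 fold change) in the ED (x axis) and in the EEM (y axis), from the 26 samples of 13 embryos; colours mark the 172 interaction calls by class, grey points are the 16612 genes without a call, open symbols are genes with at least 1 group at the floor, whose fold changes depend on the prior count, and the dotted line marks equal effects. Most calls lie in the upper left, lower in the ED and higher in the EEM of IVP embryos.

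Many of the calls were genes of low abundance. Over the 26 samples their median level was 0.902 CPM, against 9.19 CPM over all genes tested. A mean of 1 CPM in both tissues, that is in at least 1 procedure group of each, was reached by 53 of the 172. All 53 lay on the side where the ED effect was below the EEM effect. In 51 calls the EEM of IVV embryos was at the floor, in 27 the ED of IVP embryos, and in 97 no group was. By annotation 145 calls were protein coding (84.3%, against 89.8% of genes tested) and 11 were long noncoding RNAs (6.4% against 3.9%). Pseudogenes made 9 calls (5.23% against 1.97%), and 7 calls had no entry (4.07% against 3.87%). The paired ED minus EEM differences of the 5 IVP and 8 IVV embryos did not overlap in 86 of the 172 calls, and in 1.32% of all genes tested.

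Calls made in each tissue alone did not by themselves show tissue specificity. In the ED, 619 genes were lower (3.69% of those tested) and 176 higher (1.05%) in IVP embryos. In the EEM, 243 were lower (1.45%) and 288 higher (1.72%). Of the 610 genes called in the ED and not in the EEM, 60 had an interaction call, and of the 346 called in the EEM and not in the ED, 59 had one. For the remainder a difference between the tissues was not shown. Among the 185 genes called in both tissues, 163 moved the same way and none of these had an interaction call. HSD3B1, which makes progesterone from pregnenolone, was an example, chosen after its values were seen. It was 110 to 179 CPM in IVP and 20.7 to 57.7 CPM in IVV discs, and 156 to 225 CPM in IVP and 21.2 to 77.1 CPM in IVV membranes, without overlap in either tissue. Its difference between the tissues was 0.20 ± 0.23 (log2, SE; adjusted p of the interaction 0.896 by edgeR).

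Opposite effects called in each tissue on its own were found in 22 genes, and 20 of these (0.119% of those tested) also had an interaction call. All 20 were lower in the ED and higher in the EEM of IVP embryos. In 3 of them, FBN2, UNC5C and STAT6, no group was at the floor. STAT6 and UNC5C nevertheless held few counts in IVV membranes, so the size of their EEM change depends on the prior count. FBN2 (Entrez gene ID 540017) encodes fibrillin 2, a microfibril protein of the embryonic matrix. It alone had a mean of at least 1 CPM in a procedure group of each tissue, which in the EEM was the IVP group. In the ED it was 0.745, 0.755, 0.836, 0.908 and 1.04 CPM in the 5 IVP embryos and had a lowest, median and highest level of 0.771, 2.88 and 5.24 CPM in the 8 IVV embryos. In the EEM it was 0.452, 1.01, 1.47, 1.48 and 1.93 CPM in the IVP embryos, all above the IVV range of 0.085 to 0.304 CPM. The ED groups overlapped in a single IVV sample (VE24), and the EEM groups did not overlap. The log2 difference of FBN2 was -1.78 ± 0.41 in the ED (SE, adjusted p = 0.0103) and 2.78 ± 0.44 in the EEM (adjusted p = 0.000187), and its interaction was -4.35 ± 0.45 (adjusted p = 5.51e-05 by edgeR).

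UNC5C (533256), a netrin receptor in cell guidance, was 0.177, 0.908, 1.08, 1.13 and 1.16 CPM in IVP discs and 0.747 to 8.06 CPM, with a median of 4.26 CPM, in IVV discs. In the EEM it was 0.164, 0.264, 0.33, 0.668 and 0.677 CPM in IVP embryos and at most 0.153 CPM in IVV embryos. Its log2 difference was -2.30 ± 0.51 in the ED (adjusted p = 0.00736) and 2.39 ± 0.58 in the EEM (adjusted p = 0.0158, edgeR). The discs overlapped at VE19 alone and the membranes were separated. STAT6 (353105), the transcription factor downstream of interleukin 4, was 0.259 to 0.809 CPM in IVP and 0.776 to 5.76 CPM in IVV discs, and 0.103, 0.123, 0.143, 0.549 and 0.55 CPM in IVP membranes against at most 0.0754 CPM in IVV membranes. STAT6 differed by -2.49 ± 0.49 between IVP and IVV discs (adjusted p = 0.00285) and by 3.24 ± 0.79 between membranes (adjusted p = 0.016). Among the 7 embryos with XIST under 1 CPM the interaction was -4.62 for UNC5C, -6.37 for STAT6 and -4.47 for FBN2, beside -4.53, -5.58 and -4.35 in all 13. With these fewer embryos the adjusted p was 0.111, 0.101 and 0.0219.

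**Figure D2:**
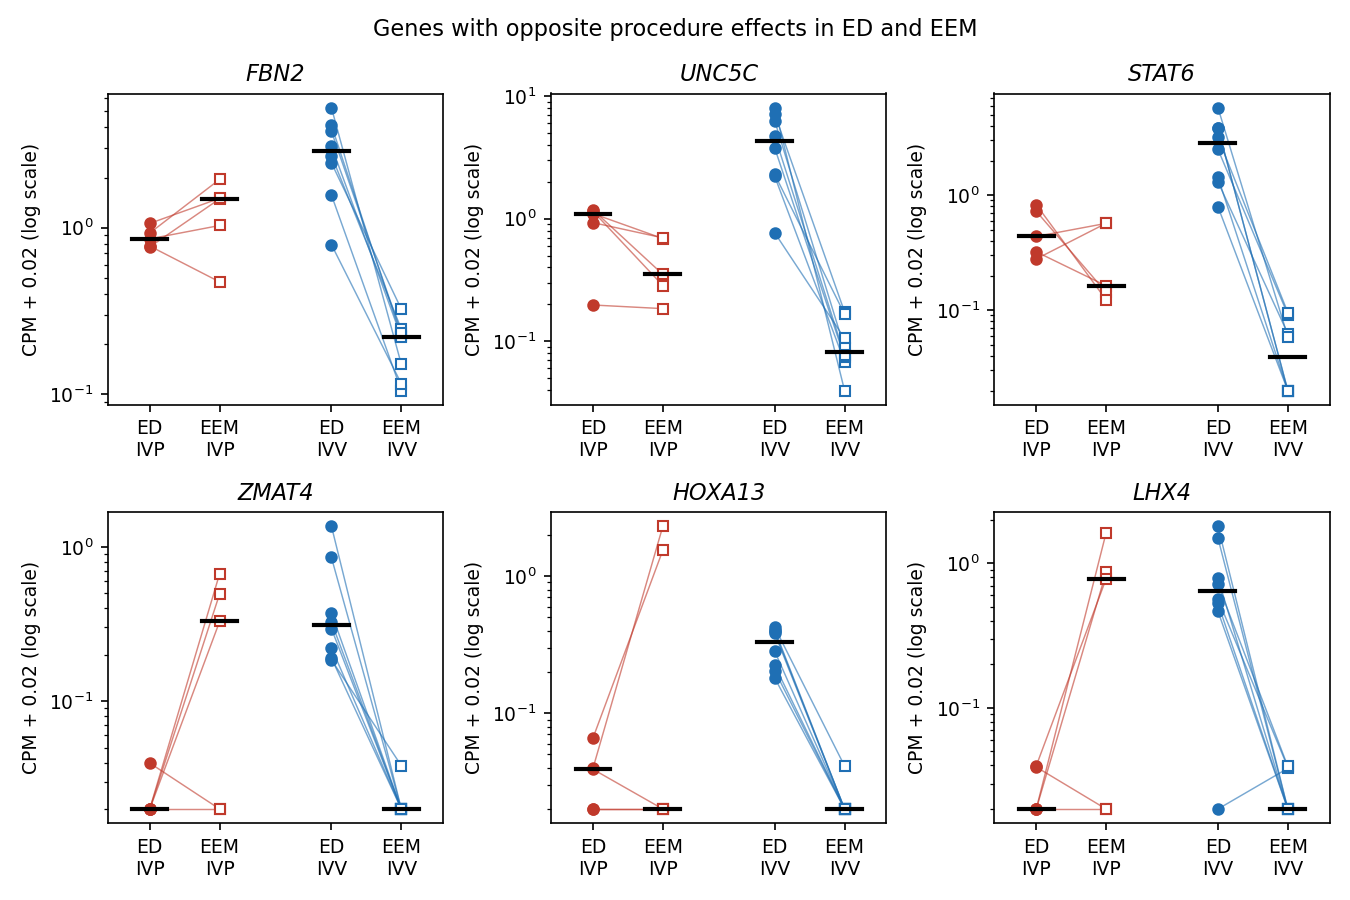
Levels of 6 genes with opposite procedure effects, in CPM plus 0.02 on a log scale; each line joins the ED (filled circle) and EEM (open square) of 1 embryo, IVP in red and IVV in blue, and black bars are medians. FBN2, UNC5C and STAT6 were present in every IVP membrane, while ZMAT4, HOXA13 and LHX4 were on in 2 or 3 of the 5.

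In the other 17 genes at least 1 group was at the floor, and 12 of these had a symbol. The class held 9 to 13 genes when IVP10, IVP11, IVPF13, IVPF14, VE26, VE28 or VE29 was left out. LHX4, HOXA13 and IRX1 encode homeobox transcription factors of the LIM, posterior HOX and Iroquois classes. HOXA13 was at most 0.046 CPM in IVP discs, where it was at the floor, and 0.161 to 0.404 CPM in IVV discs, at least 5.22-fold higher. In the membranes it was at 0 in 3 IVP embryos and at 1.53 and 2.30 CPM in IVP14 and IVPF14, while the IVV membranes were at the floor, so the IVP mean was at least 13.1-fold higher. LHX4 was at the floor in IVP discs and 0.445 to 1.78 CPM in 7 of 8 IVV discs (0 in VE3). It was on in 3 IVP membranes, at 0.759, 0.844 and 1.60 CPM, and at 0 in the other 2. ZMAT4 was also split among IVP membranes, with 0.308, 0.475 and 0.649 CPM in 3 of them and 0 in 2. IRX1 was 0.068 to 1.62 CPM in IVV discs and at most 0.071 CPM in IVP discs, and it was on in IVP10 and IVPF13 among the membranes (0.307 and 0.352 CPM).

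The remaining named genes of this class belong to other families. BMPER, a secreted binder of bone morphogenetic proteins (BMP), was 0.404 to 6.12 CPM in IVV and 0 to 0.474 CPM in IVP discs, and reached 0.923 and 0.944 CPM in 2 IVP membranes. CLDN10, a tight junction claudin, was 0.187 to 10.5 CPM in IVV discs against 0 to 0.888 CPM in IVP discs. In IVP membranes it was on in IVP10 and IVPF13 alone. SCD5, a fatty acid desaturase, had a median of 6.52 CPM in IVV and 1.94 CPM in IVP discs and was on in 2 of 5 IVP membranes (0.374 and 0.393 CPM). GAD1, which makes the transmitter GABA, had a median of 0.629 CPM in IVV discs and was at the floor in IVP discs, and it reached 0.41 CPM in 1 IVP membrane and at most 0.0786 CPM in the others. ADAM23, S100A8, SLC36A3 and TSPAN11 completed the named members, each with a mean of 0.104 to 0.568 CPM in IVP membranes and the IVV membranes at the floor. S100A8 is a calcium-binding protein of myeloid cells and belonged to the list of maternal blood genes. It was 1 of 4 genes of that list that passed the filter, and the other 3, ALAS2 (an erythroid enzyme), HBM and CD79A, had no interaction call. With an XIST term the interactions of TSPAN11, ADAM23, S100A8 and SCD5 were not called (adjusted p = 0.073, 0.135, 0.184 and 0.0923). By DESeq2 those of SLC36A3, S100A8 and SCD5 were not (adjusted p = 0.13, 0.143 and 0.183). Of the 13 fits without 1 embryo, 8 called ADAM23, 8 S100A8 and 6 SCD5. By DESeq2 10 genes formed the opposite class, 5 of them shared, and by limma voom 2 did, both shared. The interaction itself was called by all 3 tools in 153 of the 172 genes.

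This on and off pattern among IVP membranes was shared by other calls. Of the 51 calls with IVV membranes at the floor, 3 were above the floor in all 5 IVP membranes, 15 in 4, 13 in 3, 15 in 2, 2 in 1 and 3 in none. IVP10 had 17 of the 51 above the floor, IVPF13 28, IVP11 31, IVP14 33 and IVPF14 37. GYPC, glycophorin C of the red cell membrane skeleton, was such a case, with 1.34, 2.04, 2.28 and 3.61 CPM in 4 IVP membranes and 0.0205 CPM in IVP10. Some genes with this pattern had equal counts in different samples. In the membranes of IVP11 and IVP14, GYPC had 116 counts in each and ADAM23 had 14. Among IVV membranes EDA2R had 18 counts in VE24 and VE26 and 33 in VE28 and VE29. The cause of these equal counts was not tested. The IVP mean of GYPC in the EEM was at least 31.8-fold that of IVV membranes, while in the ED it was 0.177 to 0.874 CPM in IVP and 0.384 to 3.13 CPM in IVV embryos. Among disc markers, POU5F1 was 0.798 to 2.44 CPM in IVP and 0.412 to 2.23 CPM in IVV membranes, NANOG at the floor in IVP membranes, and TBXT at the floor in both. The interaction of POU5F1 was not called by edgeR (adjusted p = 0.0653). It was called by DESeq2 (0.00644), by voom (0.0351), with an XIST term (0.00629) and among the 7 embryos with XIST under 1 CPM (0.00191). SOX2 was at the floor, and LIN28A, DNMT3B, SALL4 and CRIPTO were present in all membranes. CRIPTO, a Nodal coreceptor, was 31.8 to 117 CPM in IVP membranes and 15.1 to 65 CPM in IVP discs. The 7 disc markers together summed to 176 to 287 CPM in IVP and 174 to 242 CPM in IVV membranes, against 231 to 608 CPM in IVP and 239 to 1050 CPM in IVV discs. Their part in the on and off pattern was not tested.

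A procedure effect limited to the EEM, called there, with an interaction call and an unadjusted p of 0.05 or more in the ED, was found in 40 genes (0.238% of those tested). In 32 of them IVP membranes were higher and in 8 lower. The fitted ED effect was negative in 25 of the 32 (median of the 32 -0.392, log2), against 9017 of 16784 genes tested. Without IVP11 the class held 26 genes. Of the 32, 14 reached a mean of 1 CPM in both tissues, among them secreted and matrix proteins, a Wnt ligand and imprinted RNAs. LY6E (510977) is a membrane-anchored protein of the LY6 family. It was 18.6, 27.7, 32.8, 35.3 and 38 CPM in IVP membranes and 2.74 to 16.7 CPM, with a median of 6.10 CPM, in IVV membranes, without overlap. In the ED it was 23.7 to 52.2 CPM in IVP and 20.4 to 74.9 CPM in IVV embryos. LY6E was higher in IVP membranes by 1.99 ± 0.35 (log2, SE, adjusted p = 0.000847), and its difference in the ED was -0.59 with a 95% interval of -1.22 to 0.04. VCAN (282662), the matrix proteoglycan versican, was 64.6 to 141 CPM in IVP and 13.4 to 58.4 CPM in IVV membranes. It rose by 1.57 ± 0.33 there (adjusted p = 0.00454), and in the ED the interval was -0.14 to 1.07.

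WNT4 (789600), a secreted Wnt ligand, was 4.40, 4.45, 5.12, 6.39 and 9.65 CPM in IVP membranes and 0.149 to 1.60 CPM in IVV membranes, so every IVP value exceeded every IVV value. IVP and IVV discs, by contrast, lay at 3.49 to 9.65 and 0.586 to 9.49 CPM. The log2 difference of WNT4 was 2.48 ± 0.40 in the EEM (adjusted p = 0.000213) and 0.03 in the ED, with an interval of -0.86 to 0.92. CPXM1, a secreted carboxypeptidase-like protein, was 2.36 to 4.51 CPM in IVP and 0.286 to 1.53 CPM in IVV membranes. PCOLCE2, an enhancer of procollagen processing, was 0.553 to 2.02 CPM in IVP and 0.17 to 0.406 CPM in IVV membranes. Both were separated between the groups in the EEM and overlapped in the ED. The unadjusted p of PCOLCE2 in the ED was 0.051, at the edge of the class. RNF217, a ubiquitin ligase, and BEX5 rose by 1.97 ± 0.40 and 3.10 ± 0.58, with adjusted p of 0.00372 and 0.00167 by edgeR. The IVP and IVV membranes overlapped for both. With an XIST term the interactions of WNT4, VCAN, CPXM1, PCOLCE2, RNF217 and BEX5 were not called (adjusted p = 0.125, 0.216, 0.0779, 0.082, 0.155 and 0.117). Among the 7 embryos with XIST under 1 CPM the interactions were -2.16, -1.04, -2.04, -2.72, -2.08 and -2.86 in the same order, beside -2.43, -1.31, -2.12, -2.70, -2.46 and -3.51 in all 13, and none was called. ZDHHC15, a protein palmitoyltransferase, was 0.55 to 1.27 CPM in IVP and 0.0188 to 0.175 CPM in IVV membranes.

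MEG3 (100335527), an imprinted noncoding RNA expressed from the maternal chromosome, gave the largest EEM difference of the 8 members chosen among those present in both tissues. It was 4.82, 6.68, 7.14, 10.9 and 11.6 CPM in IVP membranes and 0.0546 to 2.12 CPM, with a median of 0.412 CPM, in IVV membranes. In the ED it was 6.23 to 17.4 CPM in IVP and 2.53 to 43.6 CPM in IVV embryos. The increase of 3.71 ± 0.51 in the EEM (log2, SE, adjusted p = 2.94e-05) stood beside -0.49 in the ED, with an interval of -1.43 to 0.46. Among the 7 embryos with XIST under 1 CPM the interaction of MEG3 was also called (adjusted p = 0.00191). MEG8, a noncoding RNA of the same imprinted cluster, was added after its values were seen. It was 2.26 to 6.36 CPM in IVP and 0.091 to 0.871 CPM in IVV membranes, and its interaction was called (adjusted p = 0.00137) together with an increase of 3.46 ± 0.47 in the EEM. MEG8 was outside the class limited to the EEM. In the ED it was 1.95 to 7.25 CPM in IVP and 1.33 to 27.5 CPM in IVV embryos. Its fitted ED effect lay between -1.34 and -1.29 (log2) across scalings and DESeq2. DLK1, the protein-coding gene of that cluster, was at most 0.216 CPM in any membrane and had no interaction call (adjusted p = 0.423). NDN, also imprinted, was 1.21 to 2.77 CPM in IVP and 0.132 to 0.843 CPM in IVV membranes and overlapped in the ED. Its interaction (adjusted p = 0.0377) passed in 4 of the 13 fits that left out 1 embryo, and not with an XIST term (0.16). The interaction of NDN was -2.19 in the 7 embryos with low XIST, where it was not called, and -2.06 in all 13.

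**Figure D3:**
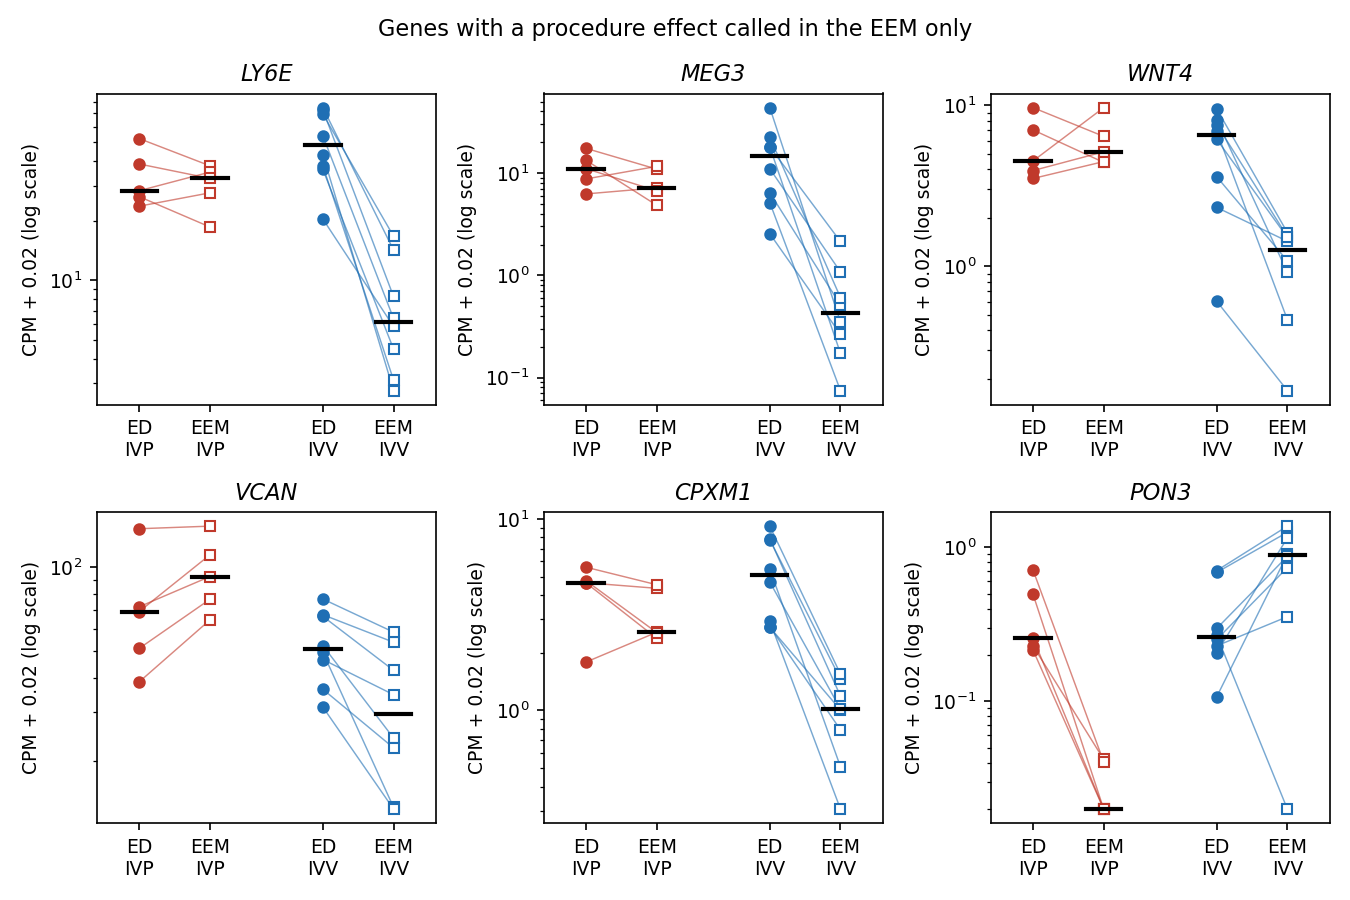
Levels of 6 genes whose procedure effect was called in the EEM only, in CPM plus 0.02 on a log scale; each line joins the ED (filled circle) and EEM (open square) of 1 embryo, IVP in red and IVV in blue, and black bars are medians. For LY6E, MEG3, WNT4, VCAN and CPXM1 every IVP membrane lay above every IVV membrane, and PON3 was at the floor in IVP membranes.

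The 8 genes lower in IVP membranes alone had 3 symbols, and none reached 1 CPM in both tissues. PON3, a lactonase carried on lipoproteins, was at most 0.022 CPM in IVP membranes and 0.334 to 1.35 CPM in 7 of 8 IVV membranes, with 0 in VE3, and the IVV mean was at least 13.5-fold higher. SH2D6, an adaptor protein with an SH2 domain, was at the floor in IVP membranes and 0.358 to 1.49 CPM in IVV membranes, at least 13.3-fold higher. LGR5, a receptor for R-spondins that strengthens Wnt signaling, was 0 to 0.0879 CPM in IVP and 0.175 to 0.734 CPM in IVV membranes and fell by 3.07 ± 0.63 (log2, SE, adjusted p = 0.00387). In the ED all 3 genes overlapped between the procedures. Of 13 fits without 1 embryo, 2 called the interaction of LGR5 and 8 that of SH2D6. The interaction of LGR5 was 2.89 in all embryos and 3.55 in the 7 with low XIST, where it was not called. The interactions of PON3, SH2D6 and LGR5 were not called with an XIST term in the model (adjusted p = 0.219, 0.145 and 0.0864), nor were those of EDA2R and H4C16, the other named genes on this side apart from SCTR (adjusted p = 0.823 and 0.212). EDA2R, a receptor of the tumour necrosis factor family, was 0.286 to 0.924 CPM in the membranes of 5 IVV embryos and 0 in VE19, VE3 and VE5, so that 2 of the 3 IVV embryos without it were those with low XIST.

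A procedure effect limited to the ED was found in 43 genes (0.256%), with IVP discs lower in 38 and higher in 5. As for the EEM, limited means an unadjusted p of 0.05 or more in the other tissue, not an absent effect. The fitted EEM effect was positive in 28 of the 38 (median of the 38 0.419, log2), against 8076 of 16784 genes tested. Without IVP10, IVP11, IVPF13, IVPF14, VE26, VE28, VE29 or VE5 the class held 19 to 26 genes. Of the 38, 10 reached 1 CPM in both tissues. IGFBP4 (282262), which binds insulin-like growth factors, was 5.02 to 23.1 CPM in IVP and 7.75 to 74.9 CPM in IVV discs. The procedures overlapped in both tissues. IGFBP4 fell by 1.62 ± 0.45 in the ED (adjusted p = 0.0358) and had an interval of -0.20 to 1.90 in the EEM. Its interaction had an adjusted p of 0.0521 with an XIST term. The interaction was -2.37 in the 7 embryos with low XIST, where it was not called, and -2.47 in all 13.

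Several genes of this class act in gastrulation and in the mesoderm that follows. MIXL1 (614854), a homeobox factor of the streak, was 1.14, 1.47, 1.62, 2.36 and 2.96 CPM in IVP discs and 3.42 to 17.3 CPM in IVV discs, with no overlap. In membranes it was 1.23 to 2.15 CPM in IVP and 0.565 to 2.31 CPM in IVV embryos, and the interval of the difference there was -0.58 to 1.00. MSX1, a homeobox target of BMP signaling, was 3.05 to 8.03 CPM in IVP and 10.2 to 30.9 CPM in IVV discs. KDR (407170), the VEGF receptor of endothelial and blood precursors, was 0, 0.237, 0.41, 0.57 and 0.613 CPM in IVP discs and 0.707 to 19 CPM, with a median of 10.2 CPM, in IVV discs. The fitted effect of KDR was -4.90 ± 0.70 in the ED (adjusted p = 0.000124), and its level was at or below 0.295 CPM in every membrane. With an XIST term the interactions of MIXL1 and KDR were not called (adjusted p = 0.121 and 0.0532). Among the 7 embryos with low XIST they were -2.11 and -4.68, beside -2.45 and -5.00 in all 13, and neither was called in the 7. LMO2, a cofactor of blood progenitors, TBX6, a factor of paraxial mesoderm, and the ligand WNT3 fell in the ED by 3.34 ± 0.53, 2.04 ± 0.48 and 3.12 ± 0.54 (adjusted p = 0.000371, 0.0126 and 0.000934). Their median in IVV membranes lay between 0.0956 and 0.246 CPM. Beside these results, the summed level of the 8 early mesoderm markers was 14.2 to 48.2 CPM in IVP and 47.5 to 197 CPM in IVV discs, and its part in them was not tested.

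The other members present in both tissues serve the cytoskeleton and signaling. CNN1, an actin-binding calponin, RAC2, a small GTPase, and TUBB3, a beta tubulin of neurons, fell in IVP discs by 1.50 ± 0.41, 1.44 ± 0.40 and 1.53 ± 0.41 (log2, SE, adjusted p = 0.0301, 0.0327 and 0.0268 by edgeR). SMAD6, an inhibitor of BMP signaling, fell by 1.32 ± 0.34. The unadjusted p of TUBB3 and SMAD6 in the EEM was 0.0511 and 0.0543, just outside the limit of 0.05, so the 2 genes sit at the edge of the class. TNC and CDH11 were not among the members present in both tissues, with at most 0.241 and 0.118 CPM in any membrane. TNC, the matrix protein tenascin C, was 0.0647 to 0.261 CPM in IVP and 0.868 to 3.54 CPM in IVV discs. CDH11, a mesenchymal cadherin, had medians of 0.829 and 8.80 CPM in IVP and IVV discs. The interaction of CDH11 was not called by DESeq2 (adjusted p = 0.211) or voom (0.0624). The interactions of TNC, CDH11, CNN1, MSX1, RAC2, TUBB3, SMAD6, LMO2 and WNT3 were each called in 5 or fewer of the 13 fits that left out 1 embryo. With an XIST term SMAD6, RAC2, TNC and CDH11 had no interaction call (adjusted p = 0.378, 0.529, 0.0923 and 0.26). In the 7 embryos with low XIST the interaction was -1.82 for SMAD6, -1.10 for RAC2 and -4.03 for TNC. Beside these stood -2.47, -1.57 and -3.44 in all 13, and none was called in the 7.

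**Figure D4:**
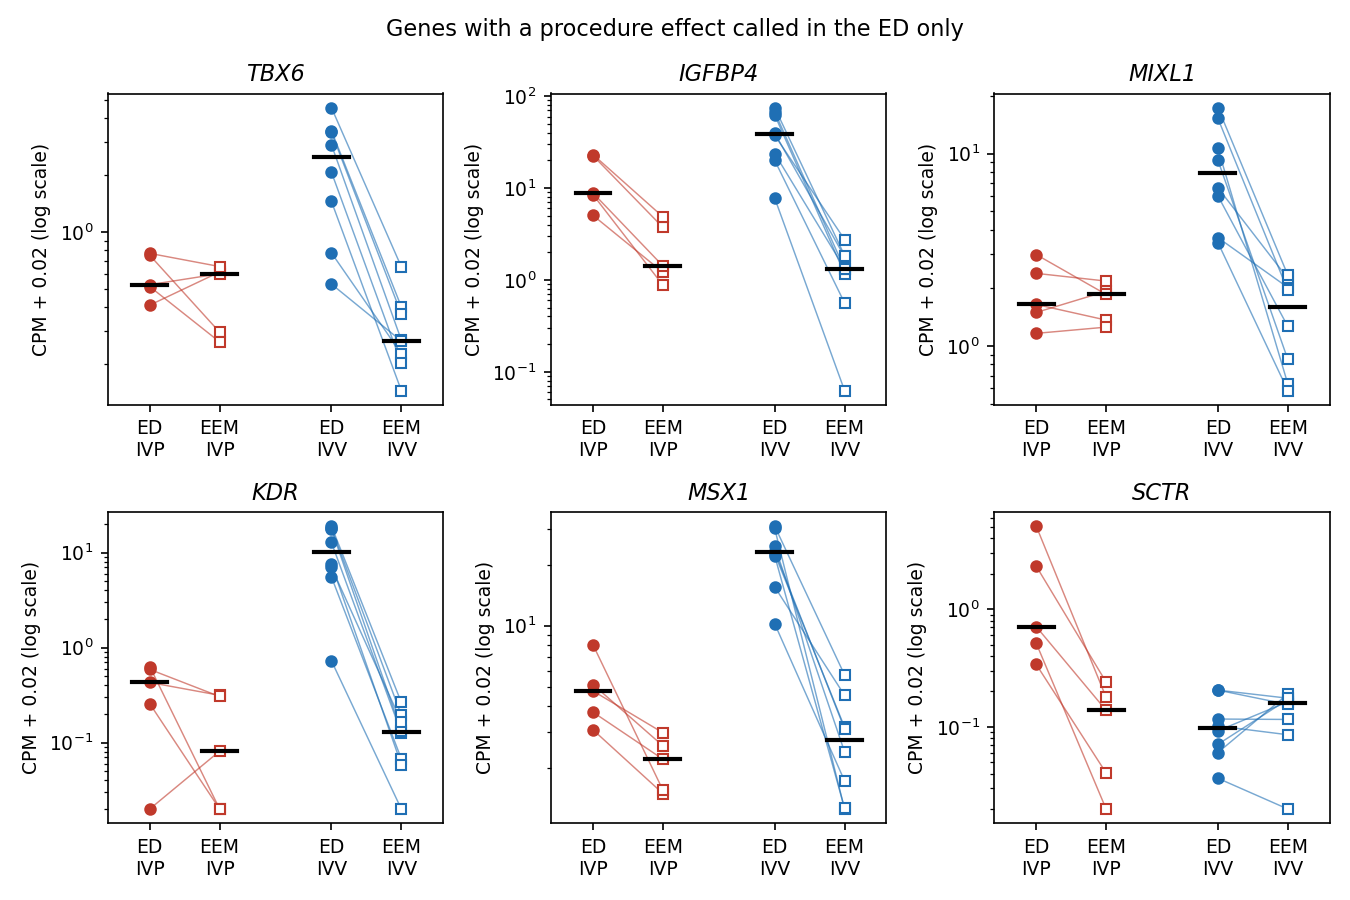
Levels of 6 genes whose procedure effect was called in the ED only, in CPM plus 0.02 on a log scale; each line joins the ED (filled circle) and EEM (open square) of 1 embryo, IVP in red and IVV in blue, and black bars are medians. MIXL1, KDR and MSX1 did not overlap between IVP and IVV discs, and SCTR was higher in all IVP discs.

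Only SCTR, the secretin receptor, had a symbol among the 5 genes higher in IVP discs alone. It was 0.319, 0.493, 0.69, 2.30 and 5.06 CPM in IVP discs and 0.0165 to 0.185 CPM in IVV discs, without overlap, and at most 0.22 CPM in membranes. SCTR rose by 4.25 ± 0.62 in the ED (adjusted p = 0.000152), and its interaction was not called with an XIST term (adjusted p = 0.263). It was 3.39 in the 7 embryos with low XIST, where it was not called, and 4.28 in all 13.

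A further 69 interaction calls fell into none of these classes, since a tissue was not called or missed the limits. In 33 of them neither tissue passed on its own. WNT5A (530005), a Wnt ligand of convergent extension, was 0.361 to 1.01 CPM in IVP and 0.989 to 11.5 CPM in IVV discs, and 0.531 to 0.82 CPM in IVP and 0.111 to 0.613 CPM in IVV membranes. It fell by 3.12 ± 0.52 in the ED (adjusted p = 0.000581), and its EEM difference of 1.22 ± 0.45 had an adjusted p of 0.177. The guidance and VEGF coreceptor NRP1 and the small protein SH3BGRL had the converse pattern. NRP1 was 0.594 to 1.73 CPM in IVP and 0.0451 to 0.388 CPM in IVV membranes, and SH3BGRL 0.901 to 2.04 and 0.0377 to 0.698 CPM. Both rose in the EEM, by 2.49 ± 0.48 and 2.69 ± 0.52 (adjusted p = 0.00229 and 0.00199), with ED differences of -1.09 ± 0.41 and -0.82 ± 0.40 that were not called. In ID4, an inhibitor of bHLH factors, both fitted effects were negative, -2.65 ± 0.43 in the ED and -1.02 ± 0.42 in the EEM, and only the first was called. CYP51A1, an enzyme of cholesterol synthesis, had an interaction of -0.98 ± 0.22 and lost the call when any of 10 embryos was left out. ID4 and CYP51A1 were not called with an XIST term (adjusted p = 0.211 and 0.416). In the 7 embryos with low XIST their interactions were -1.43 and -0.72, beside -1.59 and -0.98, and neither was called in the 7.

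Counts over the gene lists are read beside the 1.02% of all genes with an interaction call, and tissue counts beside 3.69% lower and 1.05% higher in the ED and 1.45% lower and 1.72% higher in the EEM. Of 30 BMP pathway genes 5 had an interaction call (BMPER, MSX1, SMAD6, ID4 and NBL1, a BMP antagonist), all with the ED effect below the EEM effect, and 10 were lower in IVP discs against 1 in IVP membranes. Of the 5, MSX1, SMAD6 and ID4 were called in 5 and NBL1 in 4 of the 13 fits that left out 1 embryo. Of 54 Wnt pathway genes 5 had a call, 4 on that side (WNT5A, WNT3, WNT4 and the secreted inhibitor SFRP2) and LGR5 on the other. SFRP2 was not called with an XIST term (adjusted p = 0.112). The extracellular matrix and adhesion list had 5 calls in 44 genes, with 6 lower and 0 higher in IVP discs, and 0 lower and 3 higher in IVP membranes. Among 34 genes of the streak and mesoderm, 3 had an interaction call although 13 were lower in IVP discs. The blood and endothelial, neural, and imprinted lists had 2 calls each, in 19, 22 and 20 genes, with NCAM1, a neural cell adhesion molecule, in the neural list (adjusted p = 0.14 with an XIST term). Its interaction was -4.08 in the 7 embryos with low XIST, where it was not called, and -4.96 in all 13. Median effects in the ED and EEM were -1.57 and -0.43 for streak and mesoderm, -0.996 and 0.02 for somitogenesis and Notch, -0.82 and -0.02 for BMP and -0.79 and 0.22 for neural genes. The epiblast list had 0 of 17 genes called and medians of -0.65 and 0.14, with 4 genes at an unadjusted interaction p under 0.05.

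In other lists the medians of the 2 tissues were close. The 38 immediate early genes had medians of -0.92 in the ED and -1.03 in the EEM, with 15 lower in IVP discs, 13 lower in IVP membranes and 11 lower in both, and no interaction call. Over all genes tested, 3.69% were lower in the ED, 1.45% lower in the EEM and 89 of 16784 lower in both. The 39 histone genes had medians of -1.18 and -1.29, with 11 lower in the ED, 16 lower in the EEM and 1 interaction call (H4C16, whose reads may be shared with other histone H4 copies). Neither the 21 trophoblast transcription and membrane genes nor their 15 secreted products had an interaction call, and the same held for 32 hypoblast, 39 hypoxia and glycolysis and 13 mitochondrial genes.

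**Figure D5:**
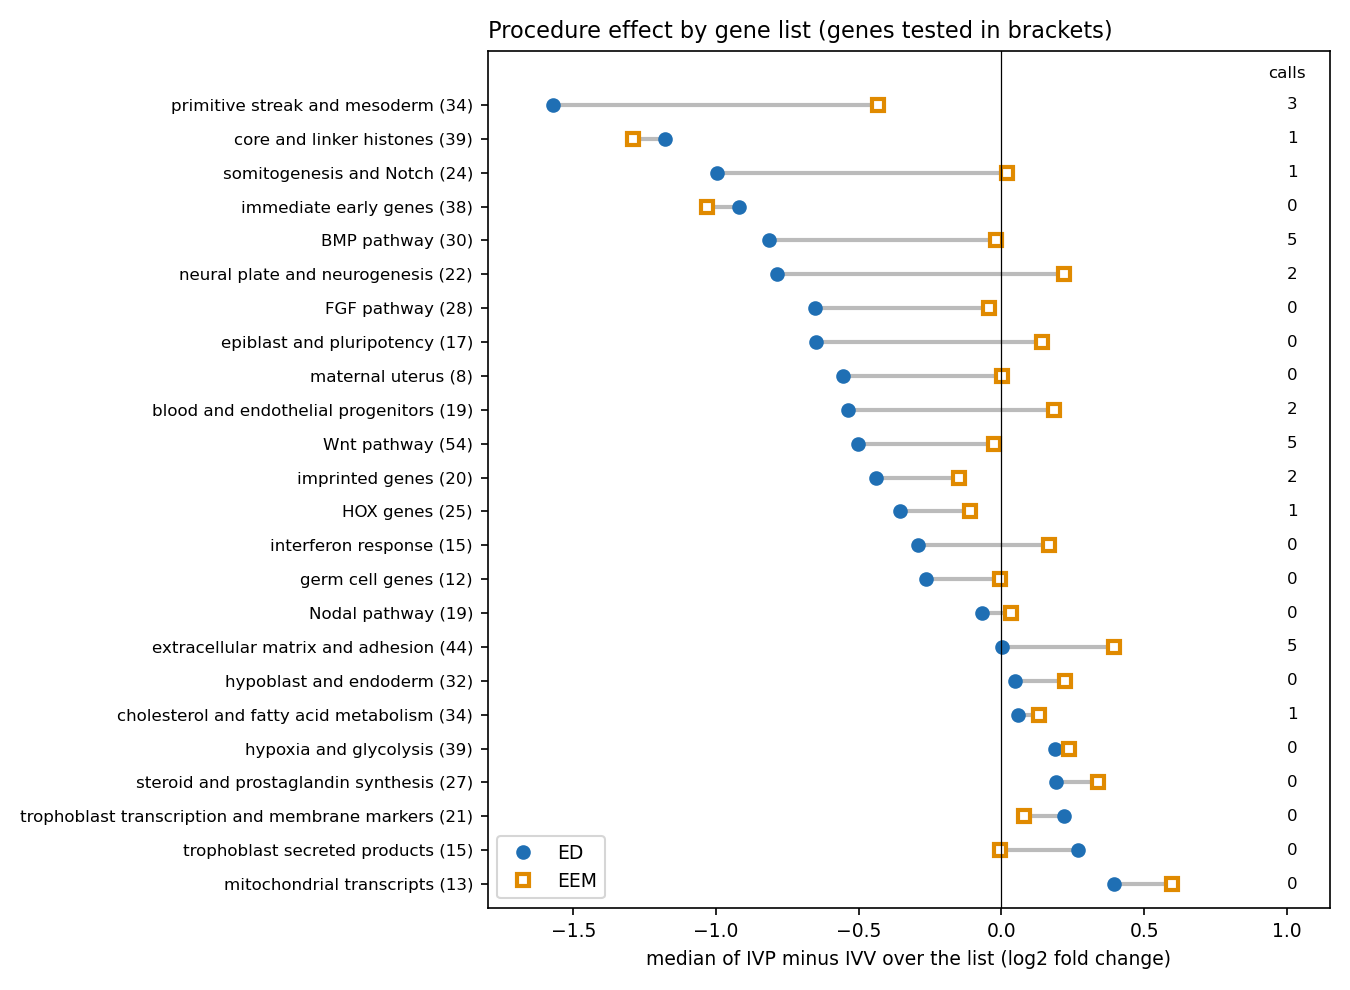
Median IVP minus IVV difference (log2 fold change) of each gene list in the ED (blue circles) and the EEM (orange squares), with the number of genes tested in brackets and the number of interaction calls at the right. In most lists the ED median lies below the EEM median, a difference that was not tested by list, and the histone and immediate early lists lie low in both.

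Samples of 4 embryos with 1 tissue had no part in the interaction fit and gave a look at the classes from outside (CPM scaled over all 30 samples). All 38 genes lower in IVP discs alone were below the IVV median in the IVP discs of both IVPF10 and IVPF15, as were 54.7% and 47.5% of all genes tested. They were below all 8 IVV discs in 24 genes (63.2%) and 21 genes (55.3%), against 23% and 13.3% of all genes tested. In the outside IVV disc, VE6, 18 of the 38 were below the median and 1 was below all 8, beside 52.9% and 4.08% of all genes. For KDR the outside discs read 0.562 and 0.451 CPM in IVP and 33.3 CPM in IVV embryos. Of the 32 genes higher in IVP membranes alone, 22 (68.8%) were above the IVV median in the outside IVP membrane, IVPF9, and 21 (65.6%) were above all 8 IVV membranes, against 50.4% and 12.2% of all genes tested. All 8 genes lower in IVP membranes were below the IVV median in it and 4 were below all IVV membranes, beside 47.6% and 6.77% of all genes. In the outside discs LY6E was 11.3 and 17.9 CPM in IVPF10 and IVPF15, under the IVV range, although its ED effect was not called in the 13 embryos. In IVPF9 MEG3 was 7.90, LY6E 19.7, WNT4 2.82 and VCAN 87.6 CPM. The 20 opposite genes divided more, with all 20 below the IVV median in both outside IVP discs, and 6 in IVPF10 and 9 in IVPF15 below all IVV discs. In IVPF9, 11 were above the IVV median and 9 above all IVV membranes. In that membrane FBN2 was 0.438 CPM, above the IVV range, while UNC5C, BMPER, HOXA13 and CLDN10 were at 0. Of the 5 genes higher in IVP discs alone, 3 were above all IVV discs in IVPF10 and 1 in IVPF15, where 22.1% and 24.5% of all genes were.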

How the data were processed

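Per the labels and the study's methods, RNA was sequenced as non-stranded poly(A) libraries (DNBSEQ, paired 100-base reads), filtered with SOAPnuke, checked with FastQC 0.11.9, trimmed with Trimmomatic, aligned with STAR 2.7.0b to ARS-UCD1.3 and counted with featureCounts of Subread 2.0.3. The authors deposited raw counts per gene (35092 genes). Without strand, a gene and an overlapping or antisense gene cannot be told apart. Entrez gene IDs were matched to RefSeq symbols of ARS-UCD2.0, used for names only (31630 IDs, 99.5% of counts).

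From these counts, edgeR 4.0.16 (R 4.3.3) gave TMM factors over the 26 samples, CPM, and quasi-likelihood tests with Benjamini-Hochberg adjustment at 0.05 over the 16784 genes kept by filterByExpr (minimum count 10). The interaction model held a term for each of the 13 embryos, and each tissue was also fitted on its own. Intervals are 95%. Fold bounds against a group at the floor used 3 counts per sample. Genes expressed in both tissues had a mean of at least 1 CPM in a procedure group of each. The procedure was tested on simulated counts.

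An embryo gave both tissues, which pairs the samples. The correlation of paired deviations was -0.19 to 0.639 over 13 pairs (median 0.403), against a median of -0.0717 between embryos, and no samples were identical. Alternatives were DESeq2 1.42.0, limma voom 3.58.1, sva 3.50.0, other scalings, filters and thresholds, no block, all 30 samples, a term for the letter ending the titles, an XIST term, and each embryo left out.

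The classes, gene lists and named genes were chosen with earlier results of these data known. Named genes had a symbol and were the 8 smallest interaction p in each direction, the opposite class (at most 15), the 8 smallest of each limited class expressed in both tissues in each direction, up to 4 calls of each list, and cell type markers. HSD3B1, MEG8, DLK1 and XIST, and the comparison of the 7 embryos with XIST under 1 CPM, were added after values were seen. The 4 samples of embryos with 1 tissue were left out of the fit and used only for comparison. Results of 2 genes named by the rule are not reported here.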

Additional observations from a re-analysis of the deposited data

Results flagged for a closer look

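The procedure effect differed between the tissues, by the interaction test of edgeR with Benjamini-Hochberg adjustment, in 54 of the genes named here. The ED effect minus the EEM effect, on the log2 scale, was -5.58 for STAT6, -5.00 for KDR, -4.96 for NCAM1, -4.71 for MEG8, -4.53 for UNC5C, -4.35 for FBN2 and -4.23 for MEG3. For the next genes in order the same difference was -4.18 for WNT5A, -3.75 for SH3BGRL, -3.65 for ZDHHC15, -3.62 for NRP1, -3.51 for BEX5 and -3.44 for TNC. It was -3.02 for LMO2, -2.75 for LY6E, -2.70 for PCOLCE2, -2.69 for WNT3, -2.51 for TBX6 and -2.47 for IGFBP4. Smaller differences were -2.47 for SMAD6, -2.46 for RNF217, -2.45 for MIXL1, -2.43 for WNT4, -2.12 for CPXM1, -2.08 for TUBB3 and -2.06 for NDN. The difference came to -2.05 for CNN1, -1.99 for NBL1, -1.89 for MSX1, -1.59 for ID4, -1.57 for RAC2, -1.31 for VCAN and -0.98 for CYP51A1. On the other side it was 4.28 for SCTR and 2.89 for LGR5. Where a group was at the floor, the fitted size depends on the prior count and the adjusted p alone is given, which was 0.000151 for GYPC, 0.000682 for ZMAT4, 0.000699 for LHX4, 0.00103 for HOXA13, 0.0023 for GAD1, 0.00245 for EDA2R and 0.0035 for BMPER. It was 0.0035 for CLDN10, 0.00541 for IRX1, 0.00783 for PON3, 0.0104 for SLC36A3, 0.0179 for TSPAN11, 0.0226 for SFRP2 and 0.0267 for ADAM23. The remaining values were 0.0312 for SH2D6, 0.0322 for H4C16, 0.0322 for S100A8, 0.0322 for SCD5 and 0.0445 for CDH11. Each of these genes is described above or in the gene lists, and no cause was tested.

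Of 190 groups of 5 or 8 samples tested on log2(CPM + 0.1), 16 held a sample whose gap to its nearest neighbour exceeded Dixon's 95% value. Chance alone marks about 1 in 20 groups. The sample was VE19 for SMAD6 (EEM, 0.0212 CPM), PCOLCE2 (EEM, 0.17 CPM), KDR (ED, 0.707 CPM), CYP51A1 (ED, 29.6 CPM), CYP51A1 (EEM, 11.2 CPM) and CDH11 (ED, 0.464 CPM). It was IVP10 for GYPC (EEM, 0.0205 CPM), NRP1 (ED, 0.426 CPM), UNC5C (ED, 0.177 CPM) and CPXM1 (ED, 1.77 CPM). IVP11 was the sample for H4C16 (ED, 0 CPM) and ADAM23 (ED, 0.108 CPM). VE3 was it for PON3 (EEM, 0 CPM) and LHX4 (ED, 0 CPM). Single cases were VE28 for EDA2R (ED, 0.0741 CPM) and VE4 for CLDN10 (ED, 0.187 CPM).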

How the results depend on the processing

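The counts of genes depended on the processing, while the direction of every call tested was kept under each alternative (36 to 172 of the 172 calls were testable). The interaction was called in 172 genes, 435 by DESeq2, 329 by voom, 374 by voom on all 30 samples, 356 with no filter, 11 with at least 10 counts in all 26 samples, 26 with a mean of 1 CPM in each tissue, 114 with the title letter and 114 with XIST as a term, 38 in the 9 embryos with letter C, 47 in the 7 embryos with XIST under 1 CPM and 60 at an adjusted p of 0.01. In the same order the opposite class of 20 genes held 10, 2 and 2 genes by DESeq2, voom and voom on all 30 samples. It held 0 and 1 with the stricter filters, 12 and 7 with the terms, 11 and 0 in the subsets, and 4 at 0.01. The 43 genes limited to the ED became 149, 66 and 136 in the same 3 fits and 106 with no filter. They became 3 and 3 with the stricter filters, 26 with the letter, 8 and 9 in the subsets and 10 at 0.01. The 40 limited to the EEM became 76 by DESeq2, 80 with no filter, 2 and 8 with the stricter filters, 19 with XIST, 12 and 9 in the subsets and 14 at 0.01. With the XIST term the members changed as well, since 2 of the 7 opposite genes and 3 of the 19 limited to the EEM were among those of the fit without it. The stricter filters test fewer genes and the subsets hold fewer embryos, and otherwise the cause was not tested. Leaving out each embryo gave 101 to 211 calls, 9 to 26 opposite, 19 to 59 limited to the ED and 26 to 43 limited to the EEM, and all 13 fits kept 61 of the 172 calls, 5 of the 20 opposite genes, 7 of the 43 limited to the ED and 11 of the 40 limited to the EEM.

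With no replicate block, which drops the pairing of tissues within an embryo, 229 genes were called, 133 of them shared, with 22, 55 and 57 genes in the classes. RLE scaling, scaling in each tissue and the other alternatives left the counts within 1.5 times. Calls with a group at the floor are limited by depth, since 3 counts were 0.0435 to 0.0676 CPM.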
